A study of Homo sapiens with 5 samples.

Results

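The aminoacyl-tRNA synthetases are the enzymes that attach each amino acid to its own tRNA. Their mRNAs were followed here in RPE1 cells, a human retinal pigment epithelial line of wild-type genotype, exposed for 18 h to doxorubicin or to its solvent DMSO. The genes were chosen by symbol alone: 36 synthetase symbols were looked up in the deposited count table, and all 36 were found among its 26485 genes. Of these, 20 encode cytosolic enzymes (GARS and KARS, which also supply the mitochondrion, were counted here) and 16 encode enzymes that work only in mitochondria. All 36 were abundant enough to be tested, among 14187 genes that were.

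Poly(A)-selected RNA had been sequenced from 5 libraries. The controls were 2 DMSO libraries. Doxorubicin was given at 0.2 µM to 2 libraries and at 0.34 µM to 1 library, and the 0.34 µM library therefore has no replicate. Total counts per library ran from 23773061 to 36725345, and each synthetase had between 77 and 8350 reads in a library. RPE1 is a single cultured line, and in these libraries the differentiated pigment epithelium genes RPE65, RLBP1 and TYR were at or near 0 and BEST1 was low (0.99 and 0.55 CPM in DMSO, 3.33 and 1.25 at 0.2 µM, 3.91 at 0.34 µM), whereas MITF, OTX2, KRT8 and KRT18 were present. Of these 8 genes 5 were tested and edgeR called none at an adjusted p under 0.01. The log2 fold changes were 1.88 for BEST1, 0.87 for KRT8 and 0.63 for KRT18. DESeq2 called KRT8 (adjusted p = 2.7e-07). Of 3 markers of other cell types, EPCAM and PECAM1 were near 0, and the leukocyte gene PTPRC was low. PTPRC had 0.19 and 0.27 CPM in DMSO and 0.97 to 2.20 with doxorubicin (log2 fold change 2.86). Its adjusted p was 0.0212 by edgeR and 0.000571 by DESeq2. The part of these markers in the results was not tested. Both the first DMSO and the first 0.2 µM library carry no replicate number in the labels. The lone 0.34 µM library lay closer to the first 0.2 µM library (chi-square per degree of freedom 9.01 over genes) than the 2 libraries at 0.2 µM lay to each other (75.3), so a difference between doses and one between library sets cannot be told apart.

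Doxorubicin intercalates into DNA and poisons topoisomerase II, which leaves double-strand breaks. Every cell needs a synthetase for each amino acid used by its cytosolic ribosomes, and a separate, nuclear-encoded set serves the mitochondrial ribosomes. When charged tRNA runs short, the kinase GCN2 (EIF2AK4) phosphorylates the initiation factor eIF2α, translation of the transcription factor ATF4 increases, and ATF4 binds C/EBP-ATF response elements near genes for amino acid synthesis, amino acid transport and many cytosolic synthetases. Several cytosolic synthetases also assemble into a multisynthetase complex with the scaffold proteins AIMP1, AIMP2 and EEF1E1. Because RNA was measured in bulk, less RNA per cell and fewer cells of a kind cannot be told apart.

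The core of the C/EBP-ATF response element, TGATGNAA, was searched on both strands of RefSeq promoters (GRCh38.p14, 250 bases before to 50 after the start). Promoters were found for 30 of the 36 genes, without DARS, LARS, VARS, YARS, AARS2 and VARS2. The element was present in 6 of 16 cytosolic promoters (37.5%) and in 1 of 14 mitochondrial promoters (7.14%), against 1003 of all 27305 promoters (3.67%). The windows around these matches are shown because the synthetases listed as ATF4-linked, described further on, hold most of them. Each runs 5′ to 3′ in the direction of the gene, and capitals mark the match or its reverse complement. ASNS, the asparagine synthetase gene and a known ATF4 target, is given for comparison.
AARS: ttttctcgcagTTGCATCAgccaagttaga
CARS: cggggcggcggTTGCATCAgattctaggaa
IARS: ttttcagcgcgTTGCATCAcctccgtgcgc
MARS: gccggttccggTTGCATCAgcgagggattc
NARS: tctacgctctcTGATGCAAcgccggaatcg
TARS: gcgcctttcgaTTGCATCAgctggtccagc
YARS2: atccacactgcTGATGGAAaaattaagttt
ASNS: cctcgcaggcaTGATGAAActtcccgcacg

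These windows lie at chr16:70289675-70289704 on the minus strand (AARS), chr11:3057407-3057436 minus (CARS), chr9:92293692-92293721 minus (IARS), chr12:57488053-57488082 plus (MARS), chr18:57621804-57621833 minus (NARS), chr5:33440956-33440985 plus (TARS), chr12:32756076-32756105 minus (YARS2) and chr7:97872458-97872487 minus (ASNS). In CARS, IARS and MARS the match began 2, 13 and 4 bases before the annotated start, in TARS and NARS at bases 3 and 15 of the transcript, and in AARS 187 bases before the start. With only the bases before the start searched, 2 of 16 cytosolic promoters held the element (12.5%, against 3.19% of all promoters). All 6 cytosolic matches read TGATGCAA, a form held by 0.923% of all promoters; this form was looked up after the matches had been seen. All 6 belonged to the 10 promoters of synthetases listed from general knowledge as ATF4-linked (60%), and none of the 6 other cytosolic promoters held a match. That list and the motif are not independent, since knowledge of such elements helped to define it. The E-box CACGTG was in 1 cytosolic promoter (IARS, 6.25%) and in 3 mitochondrial promoters (CARS2, EARS2 and MARS2, 21.4%), against 7.43% of all. The NRF1-type motif GCGCATGC was in no cytosolic and in 2 mitochondrial promoters (MARS2 and YARS2, 14.3%), against 3.27% of all. A match describes letters in these windows and shows no binding.

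In DMSO the cytosolic mRNAs were the more abundant per length. CPM (counts scaled to 1000000 reads per library with TMM factors) were divided by the length of the canonical transcript in kb for this comparison. The cytosolic median was 52.9 CPM per kb, from 9.83 for FARSB, the beta subunit of the phenylalanine enzyme, to 94.7 for GARS, the glycine enzyme. The mitochondrial median was 6.84 CPM per kb, from 1.66 for MARS2, the methionine enzyme, to 39.0 for IARS2, the isoleucine enzyme. The ranges overlapped: IARS2, CARS2 (26.9) and RARS2 (15.2) lay above FARSB. IARS2 also lay above CARS, DARS, VARS, FARSA, LARS and HARS, and CARS2 above CARS and DARS. FARSB and FARSA had mean DMSO levels of 66.5 and 66.1 CPM, divided by transcripts of 6761 and 1811 bases. GARS stood at 116 and 73.1 CPM per kb in the 2 DMSO libraries, and TARS, the threonine enzyme and next in order, at 89.3 and 84.3, so these neighbours did not differ beyond their spread. RefSeq annotated another gene within the span of 21 of the 36 genes, among them DDIT3 at MARS, ING1 at CARS2 and S100PBP at YARS. Whether counting used the strand is not stated in any source used here, and the part of shared reads in these values was not tested.

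**Figure D1:**
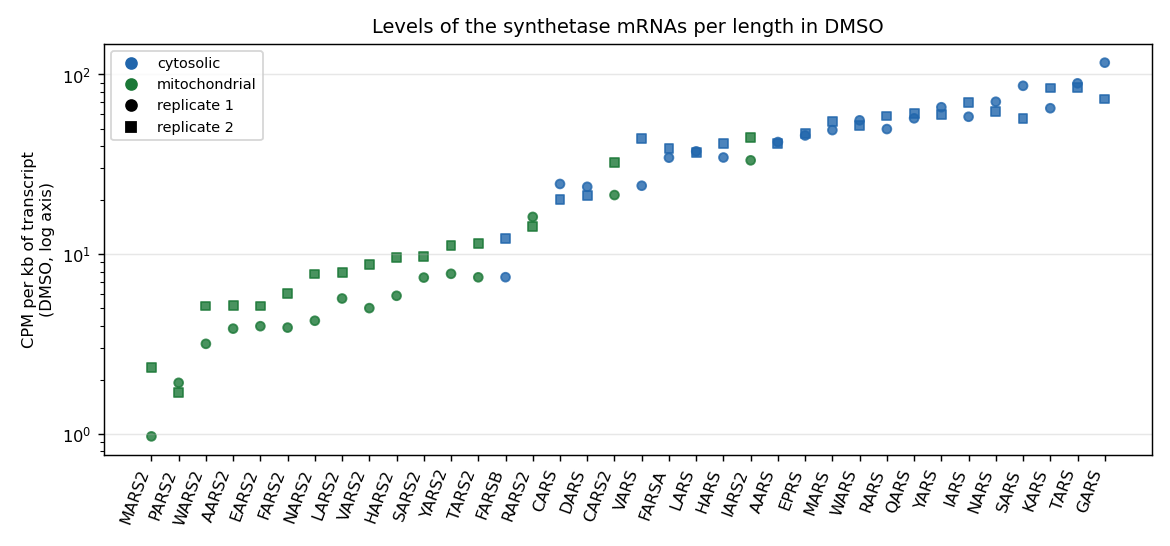
mRNA level of the 36 synthetase genes per length in DMSO, as CPM per kb of the canonical transcript on a log axis, with genes ordered by their mean; circles are DMSO replicate 1 and squares replicate 2. Cytosolic genes (blue, median 52.9) fill the upper end and mitochondrial genes (green, median 6.84) the lower end, with IARS2, CARS2, RARS2 and FARSB out of that order.

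Doxorubicin libraries were then compared with DMSO libraries, 3 against 2. No synthetase passed the test in either direction (edgeR quasi-likelihood test, Benjamini-Hochberg adjusted p under 0.01 over all 14187 genes). Among all genes tested 2.73% were called lower and 1.29% higher. At an unadjusted p under 0.05, 7 of the 36 synthetases and 4368 of the 14187 genes were found. DESeq2 called 2 synthetases lower, WARS and GARS, and none higher, against 7.72% of its 14385 genes called lower and 6.37% called higher. limma voom called none.

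The cytosolic values leaned to the lower side. Of the 20, 15 had a log2 fold change below 0 and 5 above, with a median of -0.21 and a range from -0.81 to 0.30, beside a median of 0.01 over all genes. In 9 of the 20, every doxorubicin library lay below both DMSO libraries, a pattern seen in 23.4% of all genes. In DARS and QARS, the aspartate and glutamine enzymes, every doxorubicin library lay above both, a pattern seen in 24.3% of all genes.

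**Figure D2:**
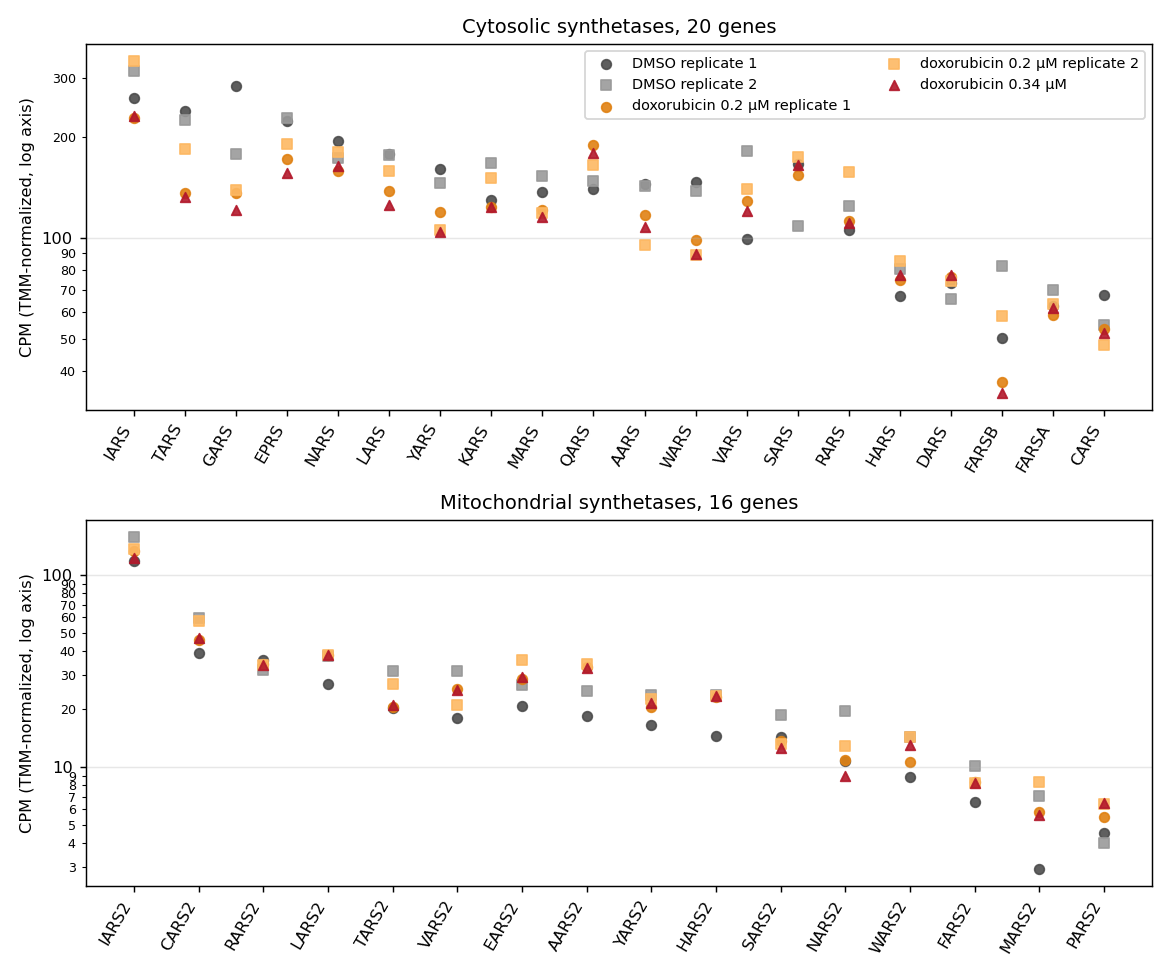
Level of each synthetase mRNA in every library, in CPM on a log axis, for the 20 cytosolic (top) and 16 mitochondrial genes (bottom), ordered by the DMSO mean; each point is 1 library. GARS, TARS, WARS and YARS have both grey DMSO points above the 3 doxorubicin points, whereas most mitochondrial genes have a wide gap between the 2 DMSO points.

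GARS had 283 and 178 CPM in DMSO, 136 and 139 CPM at 0.2 µM and 121 CPM at 0.34 µM. The doxorubicin libraries lay below both controls, but the controls themselves were far apart. Its log2 fold change was -0.81 (SE 0.21, 95% interval -1.32 to -0.29, edgeR adjusted p = 0.0534). Leaving out DMSO replicate 1 gave GARS a log2 fold change of -0.44, and leaving out DMSO replicate 2 gave -1.12.

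WARS, the tryptophan enzyme, had 147 and 138 CPM in DMSO, 98.6 and 88.8 CPM at 0.2 µM and 89.5 CPM at 0.34 µM. Here the libraries within each group stood close together and the groups did not overlap. Its log2 fold change was -0.62 (SE 0.13, 95% interval -0.94 to -0.30), with the smallest adjusted p of the 36 genes, 0.0284 by edgeR.

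TARS had 239 and 225 CPM in DMSO, 136 and 184 CPM at 0.2 µM and 132 CPM at 0.34 µM, a log2 fold change of -0.62 (SE 0.19, edgeR adjusted p = 0.0718). The second 0.2 µM library was the highest of the 3 treated libraries and still below the controls. YARS, the tyrosine enzyme, went from 161 and 146 CPM in DMSO to 119 and 105 CPM at 0.2 µM and 104 CPM at 0.34 µM, a log2 fold change of -0.48 (SE 0.14, edgeR adjusted p = 0.0694). AARS, the alanine enzyme, went from 145 and 143 CPM to 117 and 95.1 CPM at 0.2 µM and 107 CPM at 0.34 µM, a log2 fold change of -0.43 (SE 0.15, edgeR adjusted p = 0.101). In both genes the 2 DMSO libraries stood close together and no treated library reached them.

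EPRS, the joint glutamate and proline enzyme, had 223 and 227 CPM in DMSO, 172 and 190 CPM at 0.2 µM and 156 CPM at 0.34 µM (log2 fold change -0.38, SE 0.15, edgeR adjusted p = 0.140). MARS, the methionine enzyme, had 137 and 153 CPM in DMSO, 121 and 119 CPM at 0.2 µM and 115 CPM at 0.34 µM (log2 fold change -0.29, SE 0.13, edgeR adjusted p = 0.194). LARS and CARS, for leucine and cysteine, were the other 2 cytosolic genes whose treated libraries all lay below the controls, at log2 fold changes of -0.33 and -0.26.

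In the other cytosolic genes described here the treated libraries did not lie below both controls. FARSB had 50.4 and 82.5 CPM in DMSO, 37.1 and 58.6 CPM at 0.2 µM and 34.4 CPM at 0.34 µM, and its log2 fold change of -0.62 had an SE of 0.30 (edgeR adjusted p = 0.222). Leaving out the first control gave -0.94 and leaving out the second -0.24. FARSA, the alpha subunit of the same enzyme, differed little, at 62.4 and 69.9 CPM in DMSO and 58.8, 63.6 and 61.7 CPM with doxorubicin (log2 fold change -0.11). KARS, the lysine enzyme of both compartments, had 129 and 167 CPM in DMSO and 123, 151 and 123 CPM with doxorubicin (log2 fold change -0.16, 95% interval -0.59 to 0.26). HARS, the histidine enzyme, had 67.3 and 80.8 CPM in DMSO and 74.6, 85.5 and 77.6 CPM with doxorubicin (log2 fold change 0.10). QARS, with every treated library above both controls, had 140 and 148 CPM in DMSO, 189 and 165 CPM at 0.2 µM and 179 CPM at 0.34 µM, the highest cytosolic log2 fold change at 0.30 (SE 0.14, edgeR adjusted p = 0.200).

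**Figure D3:**
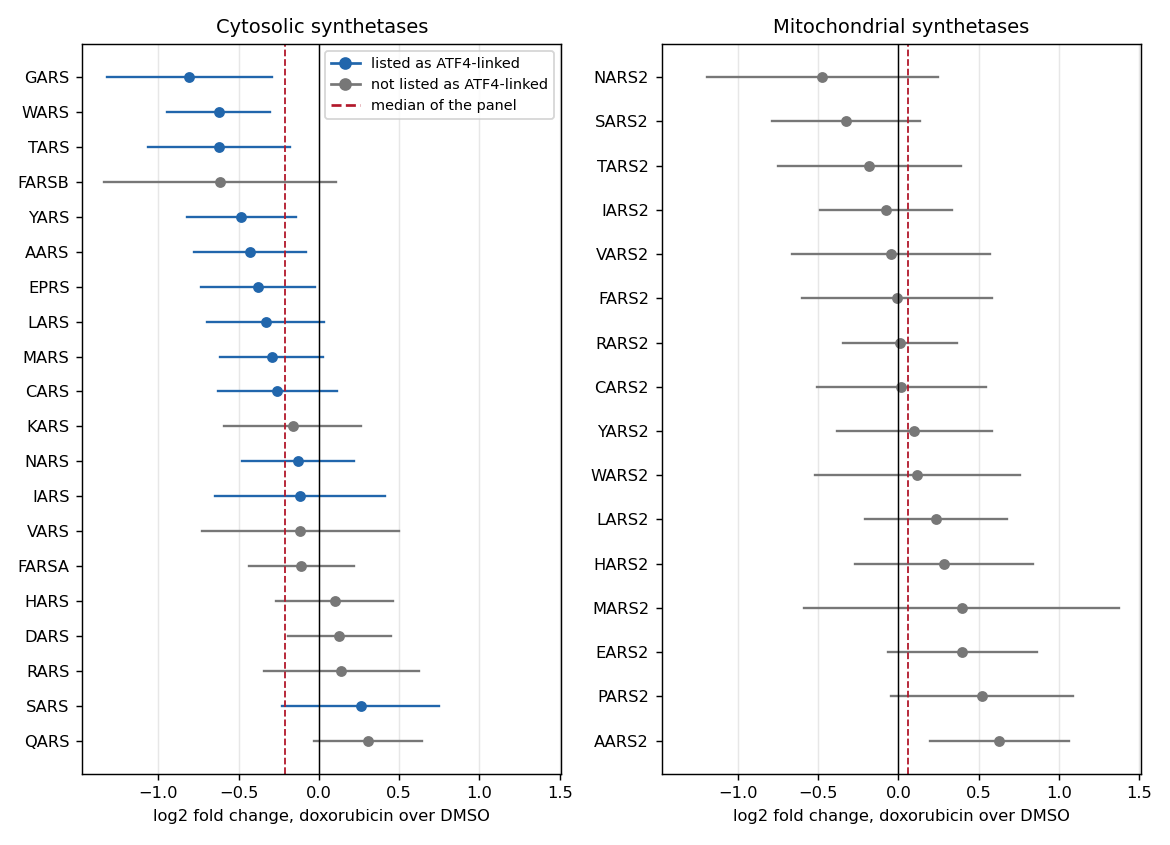
log2 fold change of each synthetase mRNA, doxorubicin (3 libraries) over DMSO (2 libraries), with 95% intervals from the edgeR fit as bars; cytosolic genes are on the left and mitochondrial genes on the right, and the dashed line is the panel's median. Of the 12 ATF4-linked genes (blue) 11 lie below 0, and the intervals of 6 cytosolic genes and of AARS2 exclude 0 before adjustment. Among all genes, 4368 of 14187 had an unadjusted edgeR p under 0.05.

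The values were then read by what the enzymes have in common. Among the 12 cytosolic synthetases listed as ATF4-linked (AARS, CARS, EPRS, GARS, IARS, LARS, MARS, NARS, SARS, TARS, WARS and YARS), 11 had a log2 fold change below 0, with a median of -0.36. The exception was SARS, the serine enzyme, at 0.26. Which gene stood above 0 depended on the control: without DMSO replicate 2, SARS was at -0.03 and IARS, the isoleucine enzyme, at 0.003. All 9 cytosolic genes with non-overlapping lower libraries, and all 6 with an unadjusted p under 0.05, were in this list. Over all genes, 23.4% had the lower pattern and 4368 of 14187 had such an edgeR p. The 8 other cytosolic genes divided into 4 below and 4 above 0, with a median of -0.01. This split also depended on the control. Without DMSO replicate 1 it was 5 below and 3 above (median -0.12), and without DMSO replicate 2 it was 2 and 6 (median 0.13). The lists were chosen with earlier results of these data known, so these counts only describe them. The difference between the lists was not tested.

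Complex membership and enzyme class were read in the same way, with no test of the difference. The 8 enzymes of the multisynthetase complex had 5 log2 fold changes below 0 and 3 above (median -0.14), and the 12 outside it 10 and 2 (median -0.34). The genes outside the complex were 12 of the 20 cytosolic genes. They held 6 of the 9 with non-overlapping lower libraries and 5 of the 6 with an unadjusted p under 0.05. Over all genes, 23.4% had the lower pattern and 4368 of 14187 had such an edgeR p. The 9 class I cytosolic enzymes, whose catalytic domain is a Rossmann fold, had a median of -0.26, and the 10 of class II, which are built on an antiparallel sheet, had -0.15. EPRS carries both classes and was left out of this split.

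Mitochondrial synthetases were spread around 0. Of the 16, 6 had a log2 fold change below 0 and 10 above, with a median of 0.06 and a range from -0.47 to 0.63. The treated libraries lay above both controls in 4 genes (AARS2, EARS2, LARS2 and PARS2) and below both in SARS2, patterns seen in 24.3% and 23.4% of all genes. Their values depended on which control they were set against. Of the 16 mitochondrial genes, 14 were higher in DMSO replicate 2 than in replicate 1, by a median of 0.56 on the log2 scale. The cytosolic genes divided evenly as a set (10 of 20, median 0.01), but not within it. Higher in replicate 2 were 3 of the 12 ATF4-linked genes (median -0.09) and 7 of the 8 other cytosolic genes (median 0.25). Over all genes tested, 50.5% were higher in DMSO replicate 2. Without DMSO replicate 1 the mitochondrial median was -0.17, and without DMSO replicate 2 it was 0.38.

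AARS2, the mitochondrial alanine enzyme, had 18.5 and 24.8 CPM in DMSO, 33.1 and 34.2 CPM at 0.2 µM and 32.9 CPM at 0.34 µM. The treated libraries were nearly level and all above the controls. Its log2 fold change of 0.63 (SE 0.18, 95% interval 0.19 to 1.06, edgeR adjusted p = 0.0663) was the only mitochondrial one with an unadjusted p under 0.05, and it lay between 0.42 and 0.83 with any 1 library left out. PARS2, the proline enzyme, had 4.54 and 4.0 CPM in DMSO, 5.49 and 6.40 CPM at 0.2 µM and 6.48 CPM at 0.34 µM (log2 fold change 0.52, SE 0.24, edgeR adjusted p = 0.193). EARS2, the glutamate enzyme, had 20.7 and 26.8 CPM in DMSO, 28.6 and 35.8 CPM at 0.2 µM and 29.4 CPM at 0.34 µM (log2 fold change 0.40, SE 0.19, edgeR adjusted p = 0.220). In EARS2 the lowest treated library stood only slightly above the higher control, and its log2 fold change was 0.22 without DMSO replicate 1.

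The remaining mitochondrial genes overlapped between groups, apart from LARS2 and SARS2. LARS2, the leucine enzyme, had 27.1 and 37.8 CPM in DMSO against 38.1, 38.0 and 38.3 CPM, so that only the first control stood apart. HARS2, the histidine enzyme, had a like pattern, with 14.5 and 23.7 CPM in DMSO and 23.0, 23.4 and 23.4 CPM with doxorubicin (log2 fold change 0.29). It lies head to head with HARS on chromosome 5, with 84 bases between the annotated genes. NARS2, the asparagine enzyme, was lowest in log2 fold change (-0.47, SE 0.30), from 10.7 and 19.5 CPM in DMSO to 10.8, 12.9 and 8.96 CPM. MARS2 was the least precise, at 2.94 and 7.09 CPM in DMSO and 5.84, 8.32 and 5.62 CPM with doxorubicin (log2 fold change 0.39, 95% interval -0.59 to 1.37). IARS2 had 118 and 158 CPM in DMSO and 133, 137 and 122 CPM with doxorubicin (log2 fold change -0.08). RARS2 and FARS2, for arginine and phenylalanine, had log2 fold changes of 0.01 and -0.01, with 95% intervals from -0.35 to 0.36 and from -0.60 to 0.58.

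Within each library the 2 compartments were also set against each other. The 20 cytosolic genes summed to 2926 and 2957 CPM in DMSO, 2432 and 2714 CPM at 0.2 µM and 2346 CPM at 0.34 µM, so that every treated sum lay below both controls. The 16 mitochondrial genes summed to 376 and 523 CPM in DMSO, 457 and 493 CPM at 0.2 µM and 450 CPM at 0.34 µM, between the controls. The ratio of the sums was 7.78 and 5.66 in DMSO, 5.32 and 5.50 at 0.2 µM and 5.21 at 0.34 µM. With 2 libraries against 3, an exact permutation test on such a value cannot go below p = 0.1, and none was made.

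**Figure D4:**
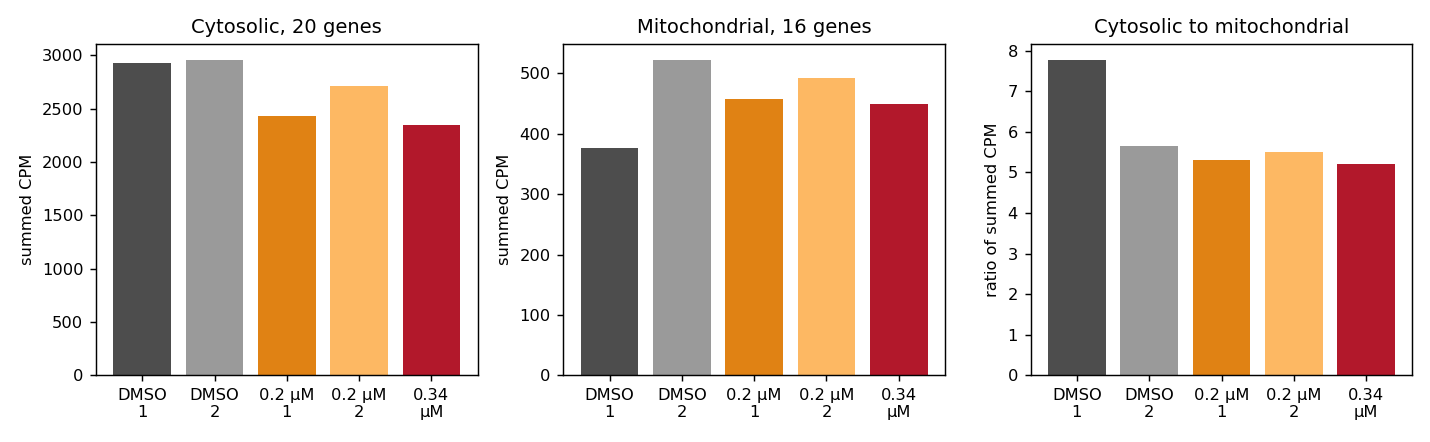
Summed CPM of the 20 cytosolic and of the 16 mitochondrial synthetase genes in each of the 5 libraries, and the ratio of the 2 sums; each bar is 1 library (DMSO grey, 0.2 µM orange, 0.34 µM red) and there are no error bars. The cytosolic sums are 2926 and 2957 in DMSO and 2346 to 2714 with doxorubicin, while the ratio of DMSO replicate 1 (7.78) stands apart from the other 4.

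For 13 amino acids the table holds a separate gene for each compartment under a paired name. In 10 of the 13 pairs the mitochondrial log2 fold change was the higher, and in 6 (alanine, leucine, methionine, threonine, tryptophan and tyrosine) the mitochondrial to cytosolic CPM ratio was higher in every treated library than in both controls. No pair had the reverse pattern. In each of the 6 pairs named, the cytosolic gene alone already had every treated library below both controls. That pattern was seen in 23.4% of all genes, and no share was worked out for ratios. Of the 16 mitochondrial genes, 14 were lower in DMSO replicate 1 than in DMSO replicate 2. The widest pair was AARS2 over AARS, whose CPM ratio was 0.128 and 0.174 in DMSO, 0.282 and 0.360 at 0.2 µM and 0.306 at 0.34 µM. WARS2 over WARS came next, at 0.0603 and 0.104 in DMSO, 0.108 and 0.160 at 0.2 µM and 0.145 at 0.34 µM, with the second control just under the first treated library. These ratios were not tested.

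By dose, each against the same 2 DMSO libraries, no synthetase was called at either concentration by edgeR. Few genes were: 0.93% of all genes lower and 0.275% higher at 0.2 µM, and 0.472% lower and 0.155% higher at 0.34 µM. At an unadjusted edgeR p under 0.05 there were 2 cytosolic genes and 1 mitochondrial gene at 0.2 µM, beside 2741 of all 14187 genes. The cytosolic median was -0.18 at 0.2 µM (15 of 20 below 0) and -0.29 at 0.34 µM (16 of 20). The ATF4-linked genes had medians of -0.29 and -0.46, and the mitochondrial genes 0.08 and 0.07. The lone 0.34 µM library lay closest to the first 0.2 µM library, so dose and library set cannot be told apart in these medians. Compared directly, 0.34 µM against 0.2 µM, the cytosolic median was -0.09 with 14 genes below 0, beside -0.02 over all genes, and no gene of the 14187 was called by edgeR (22 had an unadjusted p under 0.05, none of them a synthetase).

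The genes around the synthetases were followed as lists. Among 21 tested genes for tRNA handling and delivery to the ribosome (scaffolds of the multisynthetase complex, tRNA processing and export, elongation factors), 9 had a log2 fold change below 0 and 12 above (median 0.03). XPOT, the exporter of tRNA from the nucleus, fell. It had 206 and 201 CPM in DMSO, 94.6 and 100 CPM at 0.2 µM and 83.8 CPM at 0.34 µM, a log2 fold change of -1.13 (SE 0.14, edgeR adjusted p = 0.00500). It was the only one of the 21 called by edgeR, beside 2.73% of all genes called lower and 1.29% higher. The scaffold genes did not pass: AIMP1 had a log2 fold change of 0.39, AIMP2 -0.16 and EEF1E1 -0.42 (edgeR adjusted p = 0.330, 0.556 and 0.483).

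Of the 9 tested genes of the eIF2α kinase arm, edgeR called none (4 below 0, 5 above, median 0.07), beside 2.73% of all genes called lower and 1.29% higher. EIF2AK4, the sensor of uncharged tRNA, had 136 and 177 CPM in DMSO, 167 and 212 CPM at 0.2 µM and 171 CPM at 0.34 µM (log2 fold change 0.23, edgeR adjusted p = 0.452). It was at 0.05 without DMSO replicate 1 and at 0.41 without DMSO replicate 2. The largest change of the arm was that of EIF2AK2, at -0.60 (SE 0.20, edgeR adjusted p = 0.0945). EIF2AK2 had 98.5 and 87.5 CPM in DMSO, 53.5 and 76.8 CPM at 0.2 µM and 53.9 CPM at 0.34 µM. Every treated library lay below both controls, a pattern seen in 23.4% of all genes.

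ATF4 and 25 genes known as its targets divided into 14 below 0 and 12 above (median -0.15), with 3 called lower and 1 higher by edgeR, beside 2.73% and 1.29% of all genes. DESeq2 called 6 lower and 2 higher, beside 7.72% and 6.37%. ATF4 mRNA itself had 253 and 197 CPM in DMSO, 191 and 172 CPM at 0.2 µM and 180 CPM at 0.34 µM (log2 fold change -0.31, edgeR adjusted p = 0.242), and DDIT3, a stress-induced transcription factor, had 0.45 (0.278). Set against 1 control at a time, ATF4 was at -0.13 without DMSO replicate 1 and -0.50 without DMSO replicate 2, and DDIT3 at 0.29 and 0.60. ATF4 is controlled largely at translation, which these counts do not measure.

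ASNS fell from 40.3 and 39.8 CPM in DMSO to 15.8 and 15.4 CPM at 0.2 µM and 15.1 CPM at 0.34 µM (log2 fold change -1.38, SE 0.15, edgeR adjusted p = 0.00274). PHGDH, the first enzyme of serine synthesis, fell from 65.6 and 99.6 CPM to 26.3 and 27.7 CPM at 0.2 µM and 21.4 CPM at 0.34 µM (log2 fold change -1.72, SE 0.22, edgeR adjusted p = 0.00544). CEBPG, a partner of ATF4 on DNA, fell from 20.3 and 19.3 CPM to 8.55 and 8.56 CPM at 0.2 µM and 8.54 CPM at 0.34 µM (log2 fold change -1.21, SE 0.17, edgeR adjusted p = 0.00720). In these 3 genes, as in XPOT, the replicates of each group stood close together except for PHGDH in DMSO.

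SESN2, which is both an ATF4 and a p53 target and restrains mTORC1, rose from 11.4 and 12.8 CPM in DMSO to 57.7 and 62.8 CPM at 0.2 µM and 68.0 CPM at 0.34 µM (log2 fold change 2.38, SE 0.17, edgeR adjusted p = 0.000891). Its direction was opposite to that of ASNS, PHGDH and CEBPG in the same list, where 14 genes lay below 0 and 12 above. ATF3 had the largest log2 fold change of the list, 2.42 (adjusted p = 0.020 by edgeR and 4.98e-07 by DESeq2). It had 3.89 and 1.25 CPM in DMSO, 13.4 and 15.3 CPM at 0.2 µM and 12.8 CPM at 0.34 µM. XPOT, ASNS and CEBPG were not called with any 1 library left out, and PHGDH was called only without DMSO replicate 1, while SESN2 was not called without DMSO replicate 2. Over these fits the log2 fold changes ran from -1.19 to -1.06 for XPOT, from -1.40 to -1.35 for ASNS, from -1.27 to -1.18 for CEBPG and from -2.0 to -1.41 for PHGDH.

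**Figure D5:**
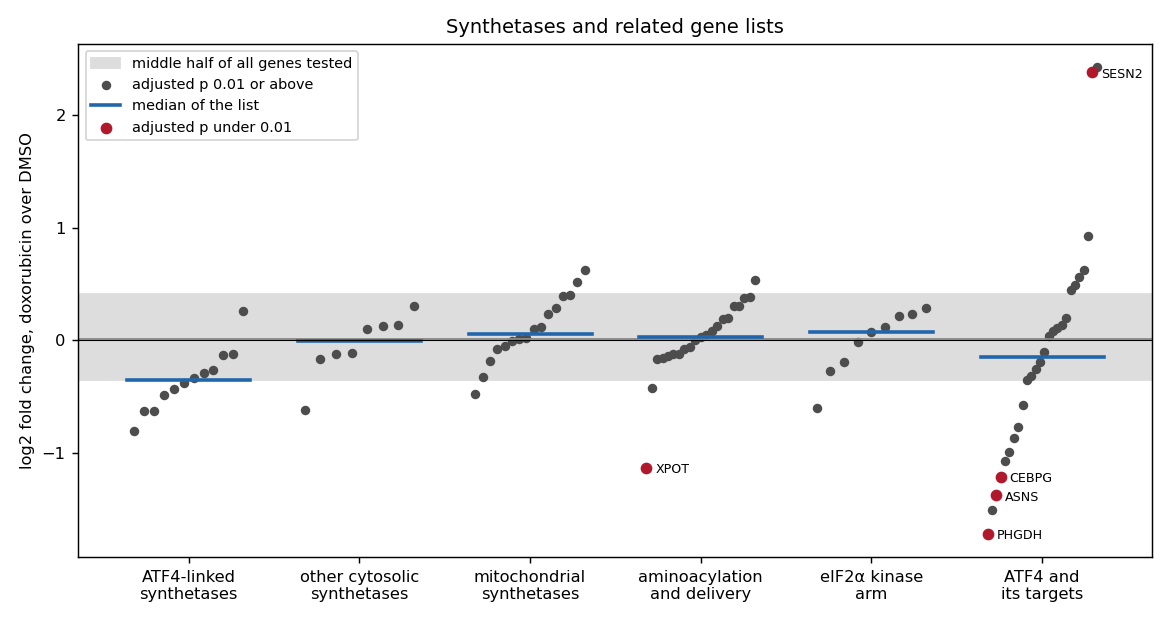
log2 fold changes, doxorubicin over DMSO, of the synthetases in 3 groups and of 3 related gene lists; each point is a gene, blue bars are medians, red points passed an edgeR adjusted p under 0.01 and the grey band is the interquartile range of all 14187 genes. The ATF4-linked synthetases have a median of -0.36, no synthetase is red, and XPOT, ASNS, PHGDH, CEBPG and SESN2 are.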

How the data were processed

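Per the labels and the methods of the study, poly(A)-selected RNA from RPE1 cells was sequenced, and STAR was used by the authors for alignment (hg38) and featureCounts for counting. The deposited values are raw counts, 1 column per library. For versions and strand setting, nothing is given in the sources used here. Doses are those of the treatment labels, since the protocol text gives larger figures. A second deposited table holds the authors' own DESeq2 fold changes and p-values and was not used.

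Counts were tested with edgeR 4.0.16 in R 4.3.3 (filterByExpr with a minimum count of 10, TMM factors, quasi-likelihood test, Benjamini-Hochberg adjusted p under 0.01), pooling 3 doxorubicin against 2 DMSO libraries. DESeq2 1.42.0, limma 3.58.1 (voom), other normalization, filter and threshold, single doses, a replicate block and each library left out were alternatives. The study calls its replicates biological; p-values measure the spread between these libraries. Positions, promoters and current names are RefSeq (GRCh38.p14; 18 genes matched by an older symbol, AARS now being AARS1 for instance); transcript lengths are GENCODE canonical transcripts. The genes and lists were chosen with earlier results of these data known. Named were genes past the threshold, in each compartment the 5 largest and 2 smallest changes, and a fixed set. QARS, DARS, SARS, LARS, CARS, NARS, IARS, CARS2, SARS2, EIF2AK2 and ATF3 were named after their values were seen.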

Additional observations from a re-analysis of the deposited data

How the results depend on the processing

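With DESeq2, 2 cytosolic genes were called lower (WARS, adjusted p = 0.00123, and GARS, 0.00696), beside 7.72% of all its genes. At an edgeR adjusted p under 0.05 there was 1 (WARS), beside 1061 of all 14187 genes called lower. The analysis reported had 0, beside 2.73% of all genes called lower. No mitochondrial gene was called under any alternative. The cytosolic median log2 fold change was -0.29 at 0.34 µM alone and between -0.34 and -0.18 with each library left out. The mitochondrial median turned sign, between -0.17 (without DMSO replicate 1) and 0.38. With only bases before the start searched, TGATGNAA was in 20% of ATF4-linked, 12.5% of cytosolic and 3.19% of all promoters. The replicate numbers pair no libraries by their labels; replicate 2 minus replicate 1 correlated between DMSO and 0.2 µM (Pearson r 0.528 across genes, which are not independent). The fit with the replicate block used the 4 DMSO and 0.2 µM libraries and called 1249 of 13891 genes, against 178 for the same libraries without the block and 571 of 14187 with all 5 libraries. No synthetase was called with the block, with medians of -0.18 (cytosolic) and 0.11 (mitochondrial). Leaving out 1 library left between 49 and 215 genes called and no synthetase.

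Signs turned as follows, each for a value not called. The tRNA handling list had a median of -0.12 at 0.34 µM. The ATF4 list had 0.037 with voom and 0.024 at 0.34 µM. The 8 cytosolic synthetases not listed as ATF4-linked had a median of 0.024 with voom, 0.024 at 0.2 µM and 0.062 with the block. RARS2 had a log2 fold change of -0.00096 with DESeq2, and FARS2 had 0.025 with voom and 0.028 with the block. VARS had 0.0040 with the block and VARS2 0.010 with voom, and at 0.34 µM RARS had -0.051, CARS2 -0.074 and VARS2 0.029. With each library left out, medians ran from -0.092 to 0.18 for the tRNA handling list, from -0.071 to 0.095 for the eIF2α kinase arm and from -0.22 to 0.10 for the ATF4 list. The sign turned in 6 of 20 cytosolic and 11 of 16 mitochondrial genes, which ran from -0.037 to 0.22 (HARS), -0.85 to 0.0016 (NARS2), -0.12 to 1.14 (MARS2), -0.099 to 0.096 (RARS2), -0.30 to 0.32 (FARS2), -0.35 to 0.018 (KARS), -0.035 to 0.67 (HARS2), -0.28 to 0.13 (IARS2), -0.031 to 0.59 (SARS), -0.50 to 0.37 (VARS), -0.26 to 0.33 (CARS2), -0.47 to 0.15 (TARS2), -0.40 to 0.40 (VARS2), -0.20 to 0.49 (WARS2) and -0.14 to 0.36 (YARS2). For each of these the 2 ends came from leaving out DMSO replicate 1 and DMSO replicate 2. IARS (-0.33 to 0.0027) and RARS (-0.042 to 0.25) were lowest without the second 0.2 µM library and highest without DMSO replicate 2. EEF1E1 ran from -0.84 to 0.13. The cause was not tested. The ATF4 list had 6 genes called lower and 2 higher with DESeq2, with no filter, at an adjusted p under 0.05 and with the block. Over all its genes DESeq2 called 7.72% lower and 6.37% higher. Of 14187 genes, 616 were called lower and 404 higher with no filter, and 1061 and 866 at the 0.05 threshold. With the block, 669 and 580 of 13891 were. At 0.2 µM alone, and with any 1 doxorubicin library left out, the ATF4 list had 0 called lower and 1 higher.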
